A study of Mus musculus with 6 samples.

Results

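The miRNAs described here are those of the miR-17-92 cluster, of its paralog miR-106b-25, of the miR-92a and miR-19b copies in the paralogous miR-106a-363 cluster, and of the separate gene miR-92b. They were chosen by name, as every mature product of miR-17, miR-18a, miR-19a, miR-19b, miR-20a, miR-92a, miR-92b, miR-106b, miR-93 and miR-25, with both arms and all loci. The rule found 22 mature miRNAs of the 1900 listed, in 24 of 2035 miRNA rows, since miR-92a-3p and miR-19b-3p have 2 loci each and were summed. The 6 small RNA libraries were made from hippocampi of C57BL/6 males, 3 months old. Every animal was Dicer1 flox/flox and was killed 3 weeks after tamoxifen. The 3 Dicer1-ifKO libraries came from mice that also carried CaMKIIa-creERT2, a Cre recombinase active after tamoxifen and driven by the promoter of a kinase of forebrain excitatory neurons, and the 3 WT libraries from mice without it. Each library was a pool of RNA from 3 mice, so the replicate is a pool and p-values measure the spread between pools. Glia, vessels and interneurons in the tissue lie outside the expected reach of this promoter. In RNA from whole hippocampus, fewer cells of a type and less RNA per cell cannot be told apart.

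Dicer cuts the precursor hairpin of a miRNA into a duplex, and one arm, or less often the other, is kept in an Argonaute protein. The seed, bases 2 to 8 of the kept arm, sets most of its pairing with target mRNAs. The miR-17-92 transcript carries several hairpins and is known as an oncogenic, proliferation-linked cluster. In the brain it is best known from neural progenitors and adult neurogenesis. miR-106b-25 lies inside Mcm7, a gene of the replicative helicase, and miR-92b has been studied mainly in neural progenitors.

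The arms that carry the family seeds fall into 4 seed groups, and their sequences show which members share a seed and how little separates some of them. For miR-106b and miR-18a the 3p arm, not shown, had more counts here than the 5p arm that carries the seed. They were taken from RefSeq (GRCm38.p6), which gave a mature sequence for 21 of the 22 members, and capitals mark the seed. The first 3 share the seed of the miR-25/92 group, the next 4 that of the miR-17 group, then miR-18a stands alone, and the last 2 share the miR-19 seed.
miR-92b-3p: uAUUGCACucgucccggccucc
miR-92a-3p: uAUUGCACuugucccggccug
miR-25-3p: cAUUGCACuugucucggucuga
miR-93-5p: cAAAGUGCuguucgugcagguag
miR-17-5p: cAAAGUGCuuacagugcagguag
miR-20a-5p: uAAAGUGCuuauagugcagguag
miR-106b-5p: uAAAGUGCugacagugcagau
miR-18a-5p: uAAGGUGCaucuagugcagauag
miR-19a-3p: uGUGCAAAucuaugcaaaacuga
miR-19b-3p: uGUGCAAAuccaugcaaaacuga
Counting from 1 at the 5′ end, with the base of the first-named miRNA written first, miR-92a-3p and miR-92b-3p differ by U10C and G21C over the 21 positions they share, miR-17-5p and miR-20a-5p by C1U and C12U, and miR-19a-3p and miR-19b-3p by U11C alone. How the counting treated reads that match several such members is not given in the sources used here, and their separation was not tested.

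The miRNA rows held 2318205 to 2739366 counts per Dicer1-ifKO library and 2724752 to 3179363 per WT library. Dicer1 itself was thinly covered, at 0.60 to 0.89 CPM (counts scaled by TMM library size) in Dicer1-ifKO and 0.69 to 1.02 CPM in WT libraries (log2 change -0.24 ± 0.24 SE, edgeR adjusted p = 0.935), and these fragments do not resolve the floxed part of the gene. Neuronal miRNAs (18 arms of miR-124, miR-9, miR-128, miR-129, miR-132, miR-138 and miR-218, all tested) summed to 2834 to 3575 CPM in Dicer1-ifKO and 3454 to 4381 CPM in WT. Of these, 1 was lower and 0 were higher, with a median log2 change of -0.39. The 1 was miR-129-5p, named after its value was seen (log2 -1.10, edgeR adjusted p = 0.0047). In 6 lists for other cell types, 0 of 21 tested arms were lower or higher, with median log2 changes of 0.05 for oligodendrocytes, 0.12 for microglia and leukocytes, 0.14 for vessels, 0.06 for erythrocytes, -0.29 for choroid plexus and -0.27 for astrocytes. Only 2 of the 8 microglia and leukocyte arms were tested. The choroid plexus list held miR-204, miR-211 and miR-449a (2 of 6 arms tested), and the astrocyte list only miR-29a and miR-26a. Whether these miRNAs are confined to those cell types was not tested. The summed level of the choroid plexus list was 217.5 to 236.9 CPM in Dicer1-ifKO and 319 to 343.5 CPM in WT. That of the astrocyte list was 6205 to 6990 CPM and 7769 to 9500 CPM in the same order, without overlap in either list. In Dicer1-ifKO and in WT, in that order, the sums overlapped at 460.2 to 621.6 and 360.5 to 596.8 CPM for vessels and at 257.8 to 349.5 and 217.5 to 341.4 CPM for oligodendrocytes. They likewise overlapped at 176.1 to 197.4 and 141.7 to 176.9 CPM for microglia and leukocytes and at 9.04 to 11.0 and 8.91 to 12.7 CPM for erythrocytes. The 3p arms of miR-146a, miR-155, miR-211 and miR-449a had no count. The part of these cell types in the values below was not tested.

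miR-92b-3p and miR-92a-3p made up nearly all of the counts of these miRNAs, and the other members of the miR-17-92 cluster were scarce. The miR-92b hairpin, on chromosome 3 between Mtx1 and Muc1 and outside any gene that GENCODE M21 annotates besides the miRNA (miR-92b-3p at 89227126 to 89227147, minus strand, GRCm38), gave 76.9% ± 1.54 of the counts of all 22 members in Dicer1-ifKO and 76.9% ± 1.33 in WT (SD, n = 3 each). The 12 products of Mir17hg on chromosome 14, the noncoding host of miR-17-92, gave 18.2% ± 0.86 in Dicer1-ifKO and 17.8% ± 0.69 in WT. Its products other than miR-92a-3p gave 0.19% ± 0.07 of the counts of all 22 members in Dicer1-ifKO and 0.22% ± 0.03 in WT. The 6 products of miR-106b-25 in Mcm7 on chromosome 5 gave 3.38% ± 0.66 in Dicer1-ifKO and 3.83% ± 0.63 in WT. By seed, the miR-25/92 group held 97.4% to 98.3% of the members' counts in the 6 libraries, the miR-17 group 1.19% to 2.08%, the miR-19 group 0.059% to 0.165% and miR-18a-5p at most 0.010%.

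The 4 most abundant members stood in the same order in both genotypes, with miR-92b-3p first and miR-92a-3p second, then miR-25-3p above miR-93-5p. Mature lengths run from 21 to 24 bases, so CPM values are compared here without a length correction. miR-92b-3p ranked 12 of 509 tested miRNAs in Dicer1-ifKO and 14 in WT, miR-92a-3p ranked 30 in Dicer1-ifKO and 36 in WT, and miR-93-5p 139 in Dicer1-ifKO and 154 in WT. The arms of miR-106b followed together at ranks 281 and 283 in Dicer1-ifKO and 287 and 308 in WT, and their levels did not differ beyond their spread. miR-17-5p, which gives the cluster its name, ranked 369 in both genotypes. Summed over its loci in Mir17hg and on chromosome X, miR-92a-3p had 343 ± 99.4 times the counts of miR-17-5p in Dicer1-ifKO and 280 ± 59.1 times in WT (SD, n = 3 each).

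**Figure D1:**
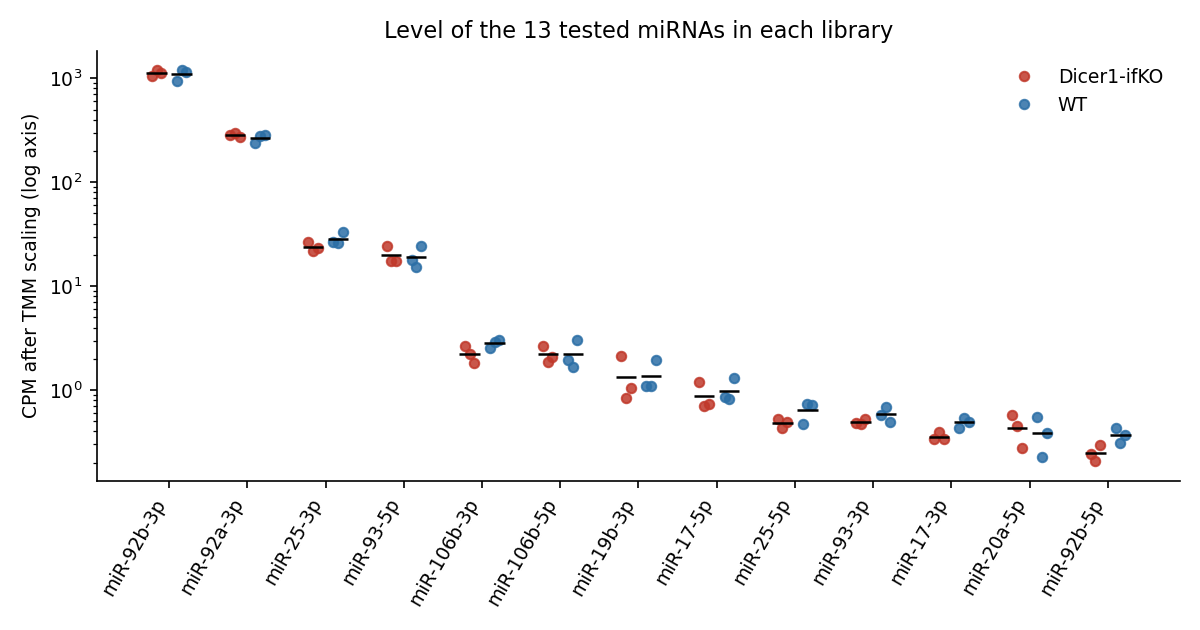
CPM after TMM scaling (log axis) of the 13 tested members, with 1 point per library, Dicer1-ifKO in red and WT in blue, and a line at the mean of each genotype. miR-92b-3p averages 1124 CPM in Dicer1-ifKO and 1089 CPM in WT, and miR-92a-3p 284 and 268 CPM in the same order, while miR-17-5p lies at 0.70 to 1.30 CPM, and the points of the genotypes overlap for 11 of the 13.

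The reads over both host genes were reads of these miRNAs. The Mir17hg span (chromosome 14, 115042879 to 115046727, plus strand, GRCm38) held 10962 to 14836 counts, of which 99.9% or more lay in member rows and 2 to 10 outside them. The Mcm7 span (chromosome 5, 138164583 to 138172422, minus strand) held 2147 to 2992 counts with 1 to 7 outside member rows. These spans therefore say nothing of the host transcripts apart from their miRNAs. GENCODE M21 places the chromosome 14 members in an exon of Mir17hg, both miR-106b arms in an intron of Mcm7, and the arms of miR-93 and miR-25 within an exon of at least 1 Mcm7 transcript. miR-25-3p lies at 138165332 to 138165353, miR-93-5p at 138165574 to 138165596 and miR-106b-5p at 138165787 to 138165807 on chromosome 5, and miR-17-5p at 115043684 to 115043706 on chromosome 14.

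miR-92a-3p and miR-19b-3p each come from chromosomes 14 and X with the same mature sequence, and the 2 pairs of rows divided their counts differently. The 4 lines show the mature miRNA in lower case and the next 6 bases of its RefSeq hairpin in capitals, which is where the copies part.
miR-92a-3p on chromosome 14: uauugcacuugucccggccugUUGAGU
miR-92a-3p on chromosome X: uauugcacuugucccggccugAGGAAG
miR-19b-3p on chromosome 14: ugugcaaauccaugcaaaacugaCUGUGG
miR-19b-3p on chromosome X: ugugcaaauccaugcaaaacugaUUGUGG
For miR-92a-3p, the chromosome 14 row (115044476 to 115044496, plus strand) held 10822, 14706 and 11752 counts in Dicer1-ifKO replicates 1, 2 and 3 and 10810, 12226 and 12326 in WT replicates 1, 2 and 3. The chromosome X row (52741854 to 52741874, minus strand) held 917, 1212 and 983 in Dicer1-ifKO and 884, 1029 and 980 in WT. The share on chromosome 14 thus lay between 92.2% and 92.6% in all 6 libraries, with 95% exact binomial intervals no wider than 91.7% to 93.1%. For miR-19b-3p the chromosome 14 row took 46.6%, 51.1% and 46.9% in Dicer1-ifKO and 50.9%, 53.8% and 38.5% in WT, and only the interval of WT replicate 3 (28.4% to 49.2%) left out an even split. How reads that align to both loci were assigned is not given in the sources used here, so these shares describe the rows and not the output of each locus. The 5p arm of the chromosome X copy of miR-92a had 0 counts in every library, and that of the chromosome 14 copy 3 to 10.

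**Figure D2:**
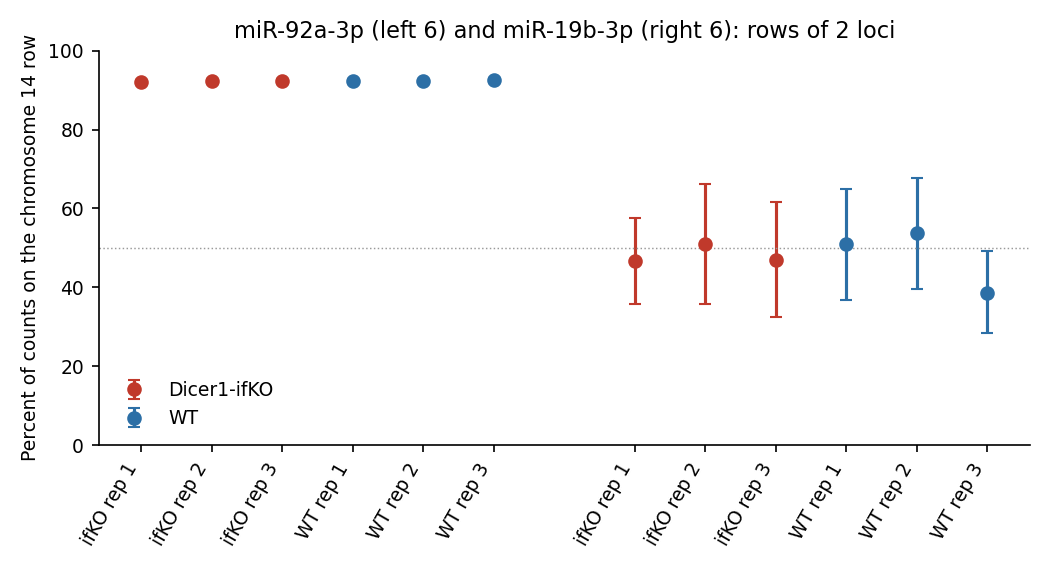
Percent of the counts of miR-92a-3p (left 6 points) and miR-19b-3p (right 6 points) on the chromosome 14 row in each library, with 95% exact binomial intervals that cover counting error only, Dicer1-ifKO in red and WT in blue. miR-92a-3p stays between 92.2% and 92.6%, and miR-19b-3p between 38.5% and 53.8%.

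The comparison of the genotypes asks whether these miRNAs changed after Dicer1 was deleted from the recombined neurons, and none of them passed the test. Of the 13 members with enough counts, 0 were lower and 0 higher in Dicer1-ifKO by edgeR's quasi-likelihood test at an adjusted p of 0.05, 0 had an unadjusted p under 0.05, and DESeq2 called 0. Over all 6502 tested features, some being overlapping spans of 1 gene, the same test called 0.8% (52), of which 0.784% lower and 0.0154% higher. Over the 509 tested miRNAs it called 6.88% lower (35) and 0% higher (0), and 0 of 13 lies near these shares. The 35 became 1 without Dicer1-ifKO replicate 2 or 3, 63 without WT replicate 1 and 12 without WT replicate 3, and was 7 with scaling on the miRNA rows. The total of 52 features ranged from 1 to 130 when 1 of the 6 was left out, whereas 0 members were called in each of these fits. The members' median log2 change was -0.18, with 9 of 13 below 0, beside a median of -0.25 and 76.4% below 0 over all tested miRNAs. The other 9 members did not reach the count filter, with 0 to 16 counts in any library, and 2 of these had no count at all.

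In the miR-25/92 group, miR-92b-3p and miR-92a-3p differed between the genotypes by less than the spread of the pools, and the 95% interval of miR-25-3p, lower on average in Dicer1-ifKO, included 0. miR-92b-3p had 1044, 1193 and 1134 CPM in Dicer1-ifKO replicates 1, 2 and 3, against 933, 1191 and 1144 CPM in WT replicates 1, 2 and 3. The groups overlapped, with WT replicate 1 the lowest library, and the log2 change of 0.05 ± 0.13 (SE) had a 95% interval of -0.24 to 0.34 (edgeR adjusted p = 0.988). miR-92a-3p had 283, 300 and 270 CPM in Dicer1-ifKO and 240, 276 and 288 CPM in WT, again with WT replicate 1 lowest. Its log2 change was 0.09 ± 0.13 (SE), with an interval of -0.20 to 0.38 (edgeR adjusted p = 0.98). miR-25-3p, whose transcript is that of Mcm7, had 26.6, 21.8 and 23.3 CPM in Dicer1-ifKO and 26.8, 25.9 and 33.2 CPM in WT. Of its libraries, Dicer1-ifKO replicates 2 and 3 lay below all 3 WT libraries, and Dicer1-ifKO replicate 1 lay among them. The ratio was 0.833 with an interval of 0.652 to 1.07 (edgeR adjusted p = 0.828).

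In the miR-17 group, libraries of 1 genotype differed more than the genotypes did. miR-93-5p, the most abundant of the group, had 24.5, 17.6 and 17.4 CPM in Dicer1-ifKO and 17.8, 15.3 and 24.1 CPM in WT (log2 0.05 ± 0.20 SE, 95% interval -0.39 to 0.49, edgeR adjusted p = 0.988). miR-106b-5p had 2.67, 1.85 and 2.10 CPM in Dicer1-ifKO and 1.97, 1.67 and 3.03 CPM in WT (log2 -0.01 ± 0.24 SE, edgeR adjusted p = 0.994). Dicer1-ifKO replicate 1 and WT replicate 3 were the highest libraries of their genotype for both. The same 2 libraries were highest for miR-17-5p, with 50, 37 and 35 counts in Dicer1-ifKO and 42, 39 and 60 in WT, and for miR-19b-3p of the miR-19 group, with 88, 45 and 49 counts in Dicer1-ifKO and 53, 52 and 91 in WT. miR-20a-5p did not share this order, with 24, 24 and 13 counts in Dicer1-ifKO and 27, 11 and 18 in WT. miR-25-3p and miR-106b-3p shared it, so it held in 6 of the 13 tested members, and miR-92b-3p and miR-92a-3p did not.

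The miR-19 and miR-18 groups held few counts, and miR-19b-3p was the only arm of them that passed the count filter. miR-19b-3p stood at 2.12, 0.85 and 1.04 CPM in Dicer1-ifKO and 1.09, 1.08 and 1.97 CPM in WT, with a log2 change of -0.06 ± 0.39 (SE) and an interval of -0.96 to 0.85 (edgeR adjusted p = 0.988). Its interval spans both a fall and a rise (ratio 0.513 to 1.8), the widest of the named members. miR-19a-3p held 1 to 7 counts and miR-18a-5p 2 to 6 counts in any library, which was too few to test. On the other arm, miR-18a-3p held 5 to 16 counts. The 3p arm of miR-106b had 2.67, 2.22 and 1.804 CPM in Dicer1-ifKO and 2.52, 2.92 and 3.00 CPM in WT, a log2 change of -0.33 ± 0.19 (SE, edgeR adjusted p = 0.807).

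**Figure D3:**
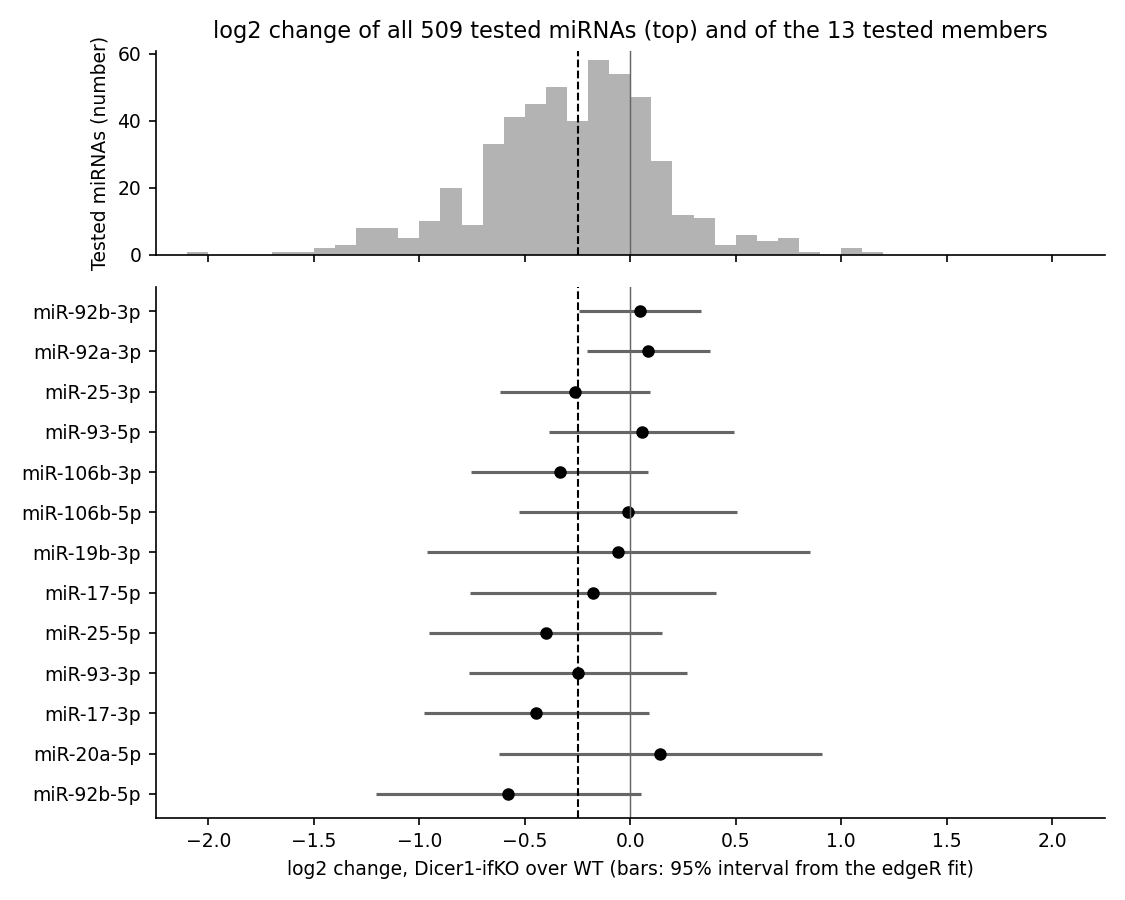
Top, number of all 509 tested miRNAs by log2 change of Dicer1-ifKO over WT; bottom, log2 change of each of the 13 tested members with its 95% interval from the edgeR fit, ordered by mean count, with a solid line at 0 and a dashed line at the median of all tested miRNAs (-0.25). All 13 intervals include 0, and the values run from -0.58 for miR-92b-5p to 0.14 for miR-20a-5p.

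The log2 changes of the abundant members depended on what the libraries were scaled to, and those of the other miRNAs shifted with them. As a share of all miRNA counts, miR-92a-3p took 0.506%, 0.581% and 0.534% in Dicer1-ifKO and 0.429%, 0.459% and 0.418% in WT, and the groups did not overlap. The share was not tested, and how many other miRNAs separated on this scale was not counted. On the same scale the genotypes overlapped for miR-25-3p, for miR-93-5p and for all members together. All members took 2.49%, 2.98% and 2.87% in Dicer1-ifKO and 2.20%, 2.52% and 2.18% in WT. miR-92b-3p took 1.87%, 2.31% and 2.24% in Dicer1-ifKO and 1.67%, 1.98% and 1.66% in WT, where WT replicate 2 lay above Dicer1-ifKO replicate 1. Scaling on the miRNA rows gave a median log2 change of 0.21 over all features, against -0.05 under the scaling on all features. The median was then 0.01 over the miRNAs and 0.09 over the members, against -0.25 and -0.18 under the scaling on all features. Under it miR-92a-3p had a log2 change of 0.35 and miR-92b-3p of 0.31 (edgeR adjusted p = 0.495 and 0.536). In a fit of the miRNA rows alone, which called 35 miRNAs lower and 17 higher, miR-92a-3p had a log2 change of 0.35 ± 0.12 (SE) and came nearest to the threshold (edgeR adjusted p = 0.0779), with miR-92b-3p at 0.31 (edgeR adjusted p = 0.153), miR-93-5p at 0.32 (edgeR adjusted p = 0.137) and miR-25-3p at -0.001 (edgeR adjusted p = 0.997).

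Ratios of 2 members within a library need no scaling, and 7 were compared by a two-sided exact permutation test, which with 3 against 3 libraries cannot go below p = 0.1. miR-25-3p and miR-93-5p are cut from the same Mcm7 transcript. Their ratio was 1.09, 1.24 and 1.34 in Dicer1-ifKO and 1.503, 1.69 and 1.38 in WT, so that all 3 Dicer1-ifKO libraries lay below all 3 WT libraries. The mean was 1.22 ± 0.13 in Dicer1-ifKO and 1.52 ± 0.16 in WT (SD, n = 3 each; log2 difference -0.32, exact p = 0.1, adjusted p = 0.35 over 7 ratios), and leaving out any 1 library kept the difference between -0.24 and -0.39. The other ratio within that transcript, miR-106b-3p to miR-93-5p, was 0.109, 0.126 and 0.104 in Dicer1-ifKO and 0.141, 0.190 and 0.125 in WT. It overlapped at WT replicate 3 alone (log2 difference -0.41, exact p = 0.2, adjusted p = 0.35), and the difference was -0.24 without WT replicate 2 and -0.54 without WT replicate 3.

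Across transcripts, miR-92b-3p to miR-92a-3p was the steadiest of the 7 ratios. It was 3.69, 3.98 and 4.19 in Dicer1-ifKO and 3.89, 4.31 and 3.98 in WT (log2 difference -0.04, exact p = 0.7, adjusted p = 0.7). The 2 miRNAs are made from separate genes on chromosomes 3 and 14 or X. They are also the members with the most counts, with means of 52590 and 13110 per library. The part of counting error and of read assignment in this steadiness was not tested. miR-25-3p to miR-92a-3p, of the same seed, was 0.094, 0.073 and 0.086 in Dicer1-ifKO and 0.112, 0.094 and 0.115 in WT, with the groups touching at Dicer1-ifKO replicate 1 and WT replicate 2 (log2 difference -0.35, exact p = 0.2, adjusted p = 0.35). miR-93-5p to miR-17-5p was 20.3, 25.2 and 23.4 in Dicer1-ifKO and 20.7, 18.9 and 18.6 in WT (log2 difference 0.24, exact p = 0.2, adjusted p = 0.35). The ratios of miR-92a-3p and of miR-20a-5p to miR-17-5p had log2 differences of 0.27 and 0.36 (exact p = 0.4 and 0.5, adjusted p = 0.56 and 0.583), and their groups overlapped in part. Leaving out 1 library gave 0.084 (without Dicer1-ifKO replicate 2) to 0.52 (without Dicer1-ifKO replicate 1) for the first and 0.15 (without WT replicate 2) to 0.744 (without WT replicate 1) for the second.

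**Figure D4:**
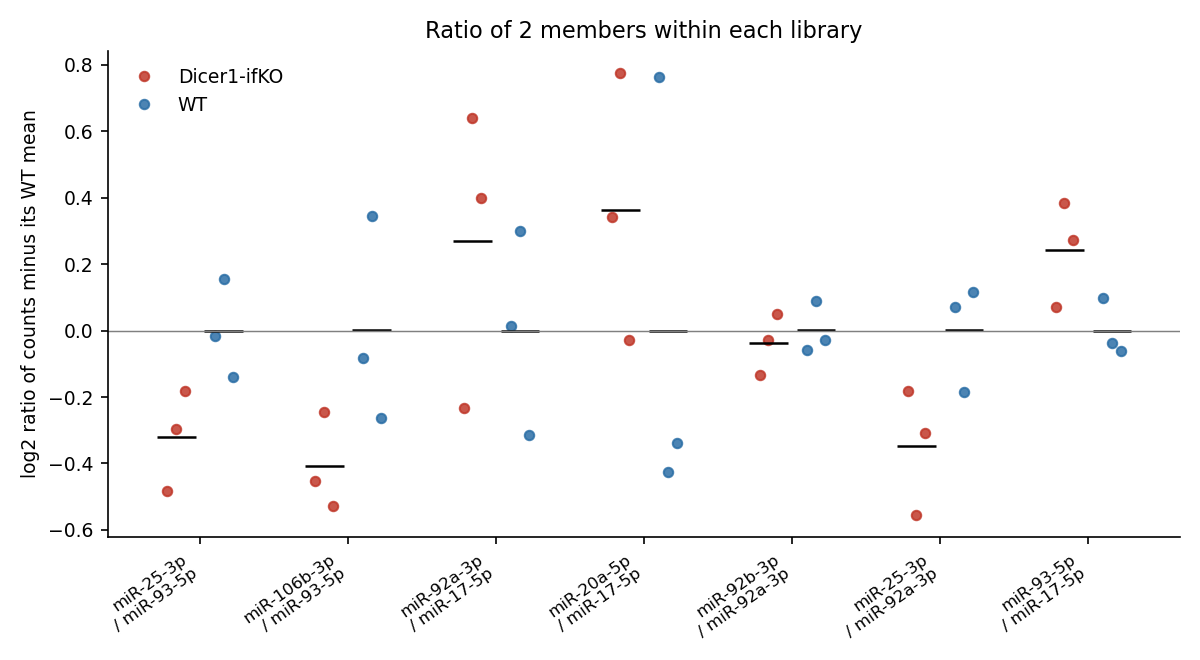
log2 ratio of the counts of 2 members in each library, minus the mean of the 3 WT libraries, for 7 pairs, Dicer1-ifKO in red and WT in blue, with a line at each mean. The groups are apart only for miR-25-3p to miR-93-5p (log2 difference -0.32), and miR-92b-3p to miR-92a-3p varies least, with a log2 SD of 0.09 in Dicer1-ifKO and 0.08 in WT.

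The hairpins differed widely in arm use. In the miR-25/92 group the 5p arm was close to absent: pooled over the 6 libraries it gave 0.028% of the counts of miR-92b (95% exact interval 0.022% to 0.034%), 0.061% of those of miR-92a (0.045% to 0.081%) and 2.09% of those of miR-25 (1.78% to 2.44%). In the miR-17 group the 3p arm was the lesser one, with 2.73% of miR-93 (2.32% to 3.19%), 7.14% of miR-20a (3.32% to 13.1%) and 31.5% of miR-17 (26.9% to 36.4%). miR-106b used both arms almost evenly, with 46.6% on 5p (43.9% to 49.3%). These intervals cover counting error only.

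Arm use overlapped between the genotypes in the 4 hairpins with a mean of at least 20 counts on each arm, and with 3 against 3 libraries the exact permutation test could not go below p = 0.1. The 5p share of miR-106b was 50%, 45.4% and 53.8% in Dicer1-ifKO and 43.8%, 36.4% and 50.2% in WT, a mean difference of 6.27 points (exact permutation p = 0.3, adjusted p = 0.667 over 4 hairpins), which was 2.72 points without WT replicate 2 and 9.62 points without WT replicate 3. The 3p share of miR-17 was 21.9%, 36.2% and 31.4% in Dicer1-ifKO and 33.3%, 40.0% and 27.7% in WT (exact permutation p = 0.5, adjusted p = 0.667). The 3p share of miR-93 averaged 2.50% ± 0.53 in Dicer1-ifKO and 3.14% ± 1.13 in WT, and the 5p share of miR-25 averaged 1.99% ± 0.06 and 2.19% ± 0.51 in the same order (SD, n = 3 each; exact permutation p = 0.4 and 0.7, adjusted p = 0.667 and 0.7). Leaving out 1 library gave a difference in the miR-93 share of -1.20 points (without WT replicate 3) to -0.069 points (without WT replicate 2).

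The lesser arms of miR-92b, miR-25, miR-93 and miR-17, 4 tested members, all had log2 changes below 0, from -0.58 to -0.25. The 5p arm of miR-106b, also the lesser by count (46.6% of its hairpin), was not grouped with them and had a log2 change of -0.01. It was counted with the other 9 tested members, which ran from -0.33 to 0.14 with 5 below 0. Over all 509 tested miRNAs, 76.4% were below 0, with a median of -0.25. miR-92b-5p held 10, 11 and 14 counts in Dicer1-ifKO and 21, 15 and 17 in WT, and miR-17-3p 14, 21 and 16 in Dicer1-ifKO and 21, 26 and 23 in WT. In CPM, these were the 2 of the 13 tested members whose groups did not overlap, both lower, where 34.4% of all tested miRNAs were lower without overlap and 2.36% higher, and 9.21% and 3.69% of all tested features were. Their log2 changes were -0.58 ± 0.29 and -0.45 ± 0.25 (SE, edgeR adjusted p = 0.73 and 0.785). miR-25-5p had 22, 23 and 23 counts in Dicer1-ifKO and 23, 35 and 33 in WT (log2 -0.40), and miR-93-3p had 20, 25 and 25 in Dicer1-ifKO and 28, 33 and 23 in WT (log2 -0.25). The GC content of these 4 arms is 54.5% to 62.5%, and that of the other 9 members 39.1% to 63.6%. The part of base composition was not tested. These arms were grouped after their values were seen.

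**Figure D5:**
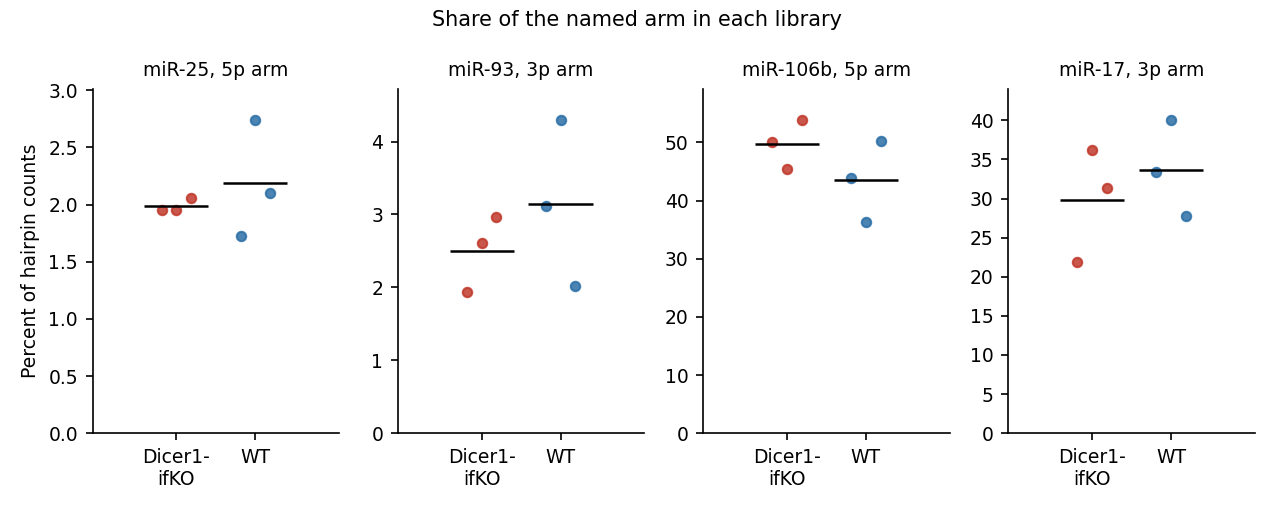
Percent of the counts of a hairpin on the named arm in each library, for the 4 hairpins with a mean of at least 20 counts on each arm, Dicer1-ifKO in red and WT in blue, with a line at each mean. The genotypes overlap in all 4, and pooled over the libraries miR-106b comes nearest to an even division (46.6% on 5p, with 36.4% to 53.8% in single libraries).

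The relatives of these miRNAs outside the name rule that were counted added almost nothing to their seed groups. miR-6383, which also has the miR-17 seed, was not among them, and its counts were not examined. Of the 12 remaining arms of miR-106a, miR-18b, miR-20b, miR-363, miR-32 and miR-367, 7 had no count in any library. A count of 0 allows up to 3 counts, or 0.0565 to 0.0723 CPM per library. miR-363-3p, of the miR-25/92 seed and of the chromosome X cluster, held 1 to 4 counts per library, and miR-20b-5p and miR-106a-5p, of the miR-17 seed, held at most 1 and 2. Only miR-32-5p, which has the miR-25/92 seed, was tested. It had 16, 13 and 22 counts in Dicer1-ifKO and 10, 6 and 15 in WT, and its log2 change was 0.73 ± 0.38 (SE; edgeR adjusted p = 0.74).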

How the data were processed

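Small RNA was sequenced by the submitters from total hippocampal RNA (TruSeq small RNA protocol, Illumina HiSeq), per the labels' protocols. The design text gives 12 mice per genotype, whereas 3 pools of 3 make 9. The deposited files list 109108 features, each with raw counts, which were used unscaled, and a scaled column, which was not used. The submitters' processing notes list BWA, SAMtools 0.1.18, CASAVA 1.8.2, DESeq2 and the build GRCm38, with no role for any. The counter, its strand setting, its treatment of multiply aligned reads and any use of molecular identifiers were not given in the sources used here. A miRNA's reads also count in its host's span, so feature sums overstate read depth.

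Spans of 1 gene with equal counts in all libraries were counted once (18084 rows removed), and loci of 1 mature name were summed for every miRNA. Overlapping spans with unequal counts were kept, so the 6502 features are not all separate RNAs. edgeR 4.0.16 (R 4.3.3) was run on the whole table: filterByExpr by genotype (minimum count 10), TMM, robust glmQLFit and glmQLFTest, Benjamini-Hochberg over 6502 features, threshold 0.05. SE and 95% intervals were derived from the F statistic. CPM refers to the summed counts of tested features after TMM. The fit was run on simulated counts with the same dispersion for every feature, which checks the code and not its behavior on these pools. Ratios and arm shares were compared by exact permutation (SciPy 1.17.1). Positions and host genes came from the files and GENCODE M21 (GRCm38), sequences from RefSeq. DESeq2 1.42.0, other scalings and filters, single loci, miRNAs alone, a replicate block and leaving out each library were the alternatives. Members averaging 50 or more counts were given in full, the others by counts and ranges. The members, the 7 cell type lists and the tests were chosen with earlier results of these data known.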

Additional observations from a re-analysis of the deposited data

How the results depend on the processing

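No member was called under any of the 15 alternatives (0 lower, 0 higher), and log2 changes of miR-25-3p and miR-106b-3p stayed below 0 and that of miR-92a-3p above 0 in all 15. With TMM over the miRNA rows and with miRNA rows alone, however, miR-25-3p was at -0.002 and -0.001 and miR-106b-3p at -0.082 and -0.08. The count of 52 changed features was 22 on library totals, 11 with TMM over the miRNA rows and 6 with the replicate block; it was 23, 1 and 1 without Dicer1-ifKO replicate 1, 2 or 3, and 130, 34 and 16 without WT replicate 1, 2 or 3. Of the miRNAs, 35 were lower, against 3 with the replicate block and 1 to 63 with a library left out. The members' median of -0.18 was 0.086 with TMM over the miRNA rows, 0.047 with a mean of at least 50 counts (which leaves 7 members), 0.046 with miRNA rows alone, and -0.38 to -0.006 with a library left out. Members near 0 changed sign. miR-106b-5p (-0.01) was 0.035 with DESeq2 size factors and with DESeq2, 0.048 on library totals, 0.26 with TMM over the miRNA rows, 0.031 without a filter, 0.047 with a mean of at least 50, 0.26 with miRNA rows alone, 0.018 with the replicate block and -0.17 to 0.32 with a library left out. miR-19b-3p (-0.06) was 0.015, 0.20, 0.00042 and 0.20 on library totals, with TMM over the miRNA rows, with a mean of at least 50 and with miRNA rows alone, and -0.55 to 0.33 with a library left out. Leaving out a library gave -0.043 to 0.127 for miR-92b-3p, -0.13 to 0.30 for miR-93-5p, -0.081 to 0.011 for the log2 ratio of miR-92b-3p to miR-92a-3p, -0.433 to 0.072 points for the 5p share of miR-25 and -7.06 to 0.11 points for the 3p share of miR-17. The cause was not tested. Libraries with the same replicate number did not deviate together (correlations -0.179, 0.074 and -0.155 over tested features). Whether they share more than the number cannot be told from 3 pairs. The replicate block left every member uncalled, although it lowered the counts of changed features and of lower miRNAs to the 6 and 3 given above. For the ratios and arm shares, 3 pairs cannot go below an exact p of 0.25. Members below miR-106b-5p rest on means of 14.7 to 63 counts; the part of depth in their errors was not tested.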
